A study of Mus musculus with 8 samples.

Results

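The genes described here make and run the folding machinery of the endoplasmic reticulum (ER), the compartment where a cell threads, folds and checks the proteins it will secrete. They were taken by symbol from a list of 42 genes of this machinery. The rule for membership uses no measured value, but the list was drawn up with earlier results of these data known. Of the 42, 41 were among the 11841 gene symbols of the deposited expression table, and Sels, a selenoprotein of ER degradation, had no line in it. The 41 were 12 chaperones and their helpers, 5 disulfide enzymes, 3 stress sensors or their transcription factors, 9 genes of ER-associated degradation, 5 subunits of the protein-conducting channel (the translocon), 4 subunits of the translocon-associated TRAP complex and 3 subunits of signal peptidase. All 41 also passed the filter on low values used for testing.

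The libraries came from CD44+ CD4+ T cells, which are antigen-experienced helper T cells, taken from skin-draining lymph nodes, and all mice were of strain BALB/cAJcl. Every group was stimulated with PMA plus ionomycin for 2 h. Those drugs bypass the T cell receptor and make the cells transcribe the cytokines they are poised to secrete. The 4 genotypes were T-bet-/- STAT6-/- (double-null below), T-bet-/- (T-bet-null), STAT6-/- (STAT6-null) and wild type (WT), with 2 libraries each. T-bet, encoded by Tbx21, is the master transcription factor of interferon-producing helper cells, and STAT6 carries the IL-4 signal that favours type 2 helper cells. Not given in the sources used here were the age and sex of the mice, the exons removed, and whether a gene was lost in T cells alone or in the whole animal. Because nothing states that both libraries of a genotype had different donor animals, the p-values speak for the spread of these samples only, and that spread may be technical.

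Proteins enter the ER through the Sec61 channel, lose their signal peptide, and fold with the help of BiP (Hspa5), GRP94 (Hsp90b1), the lectin chaperones calreticulin and calnexin, and enzymes that form disulfide bonds. When unfolded protein accumulates, the sensors ATF6 and IRE1 (Ern1) start the unfolded protein response: ATF6 is cut to release a transcription factor, and IRE1 splices Xbp1 mRNA so that it encodes one. Both factors raise transcription of chaperones and of genes that send misfolded protein out of the ER for destruction. Plasma cells and stimulated helper T cells, which secrete antibody and cytokines, are known to use this machinery. Gene-level expression does not separate spliced from unspliced Xbp1 and does not show cleavage of ATF6.

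Values are FPKM, fragments scaled to transcript length and to the library's mapped fragments, so they can be compared between genes as well as between libraries. Tbx21 stood at 2.49 and 2.09 FPKM in double-null and at 1.44 and 1.54 in T-bet-null libraries, against 102 and 92.1 in STAT6-null and 30.8 and 31.6 in WT libraries. Stat6 stood at 29.6 and 26.9 FPKM in double-null and 31.6 and 29.0 in STAT6-null libraries, against 88.8 and 89.8 in T-bet-null and 89.9 and 90.9 in WT libraries, so both genes were low in the libraries labelled as lacking them. The 7 T cell markers found, of 8 listed, summed to 1464 to 1546 FPKM in double-null, 1546 to 1567 in T-bet-null, 1697 to 1712 in STAT6-null and 2020 to 2035 in WT libraries. Cd4 had 88.1 and 110 FPKM in double-null, 122 and 114 in T-bet-null, 127 and 127 in STAT6-null and 195 and 208 in WT libraries. Cd44 had 389 and 362 FPKM in double-null, 436 and 442 in T-bet-null, 355 and 357 in STAT6-null and 251 and 282 in WT libraries. Cd44 was thus higher in every mutant library than in WT libraries, and the other T cell markers found were lower. WT libraries stood apart in the 2 haemoglobin genes found of 7 erythroid markers, which summed to 224 to 442 FPKM there and to at most 7.48 in any mutant library. The 8 myeloid and dendritic markers found of 12 summed to 124 and 142 FPKM in double-null, 117 and 113 in T-bet-null, 241 and 150.3 in STAT6-null and 226 and 188 in WT libraries. In bulk RNA, fewer cells of a type and less RNA per cell cannot be told apart.

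A call below is a limma test on log2(FPKM + 1) with a Benjamini-Hochberg adjusted p under 0.05 over 10281 genes, and log2 differences are on that scale. Against WT, 24 of the 41 ER genes rose and 5 fell in double-null cells, where 36.3% and 36.7% of all genes tested did so (73% in either direction). The corresponding counts were 14 higher and 12 lower in T-bet-null cells, against 34.2% and 36.3% of all genes (70.6% in either direction). In STAT6-null cells they were 16 higher and 10 lower, against 34.9% and 36.1% of all genes (71% in either direction). So many genes differed from WT that the higher calls of the single mutants lie near the background, while in double-null cells the higher calls of the ER genes exceed it and the lower calls fall short of it. Set against T-bet-null cells, double-null cells had 19 ER genes higher and 2 lower, while 16.4% and 16.2% of all genes were called in those directions (32.6% in either). Set against STAT6-null cells they had 16 higher and 0 lower, while 11.3% and 8.63% of all genes were called (19.9% in either). The median log2 difference of the 41 was 0.27 for double-null over WT, 0.19 over T-bet-null and 0.15 over STAT6-null cells, where the medians of all genes were -0.0047, 0.0087 and 0.0135. The count of 16 over STAT6-null cells fell most without STAT6-null replicate 1, and fell too without STAT6-null replicate 2 or double-null replicate 2. It fell less without either T-bet-null library, and fell to 12 when only the groups compared were fitted. The reason was not tested.

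**Figure D1:**
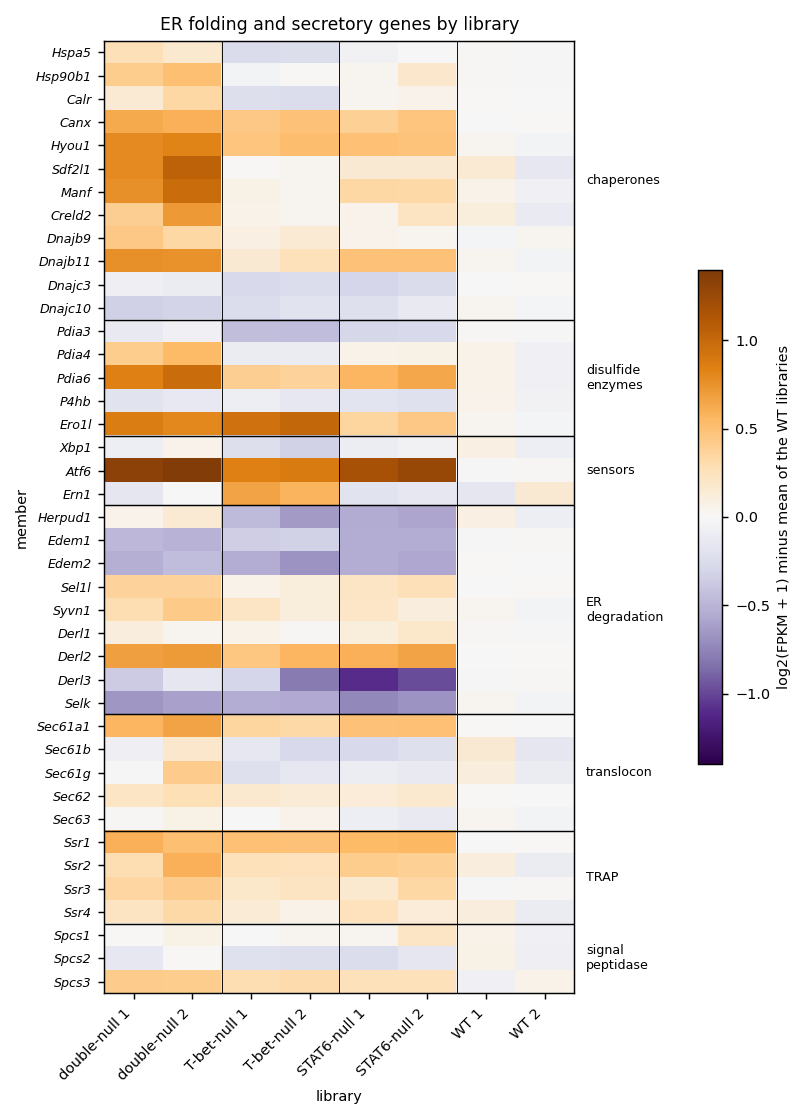
Level of each of the 41 ER genes in each of the 8 libraries, as log2(FPKM + 1) minus the gene's mean in the WT libraries, with libraries across, genes down the side by role, and orange above and purple below the WT mean. In 20 of the 41 genes both double-null libraries lie above the other 6, as in 13.4% of all genes tested, and most chaperones are among them.

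Of the 12 chaperones, 10 were higher in double-null cells than in WT cells, 10 were higher than in T-bet-null cells and 10 were higher than in STAT6-null cells. The shares of all genes tested were 36.3%, 16.4% and 11.3%, in the same order. In all, 10 ER genes were higher in double-null cells than in each of the other 3 genotypes, a pattern shown by 3.99% of all genes tested, and 8 of the 10 were chaperones: Hspa5, Hsp90b1, Sdf2l1, Creld2, Manf, Dnajb9, Hyou1 and Dnajb11. The others were the disulfide isomerases Pdia4 and Pdia6. No ER gene was lower in double-null cells than in each of the other 3 genotypes, a pattern of 2.88% of all genes tested. Against STAT6-null cells, the call of 5 of the 10 (Hspa5, Hsp90b1, Creld2, Dnajb11 and Pdia6) was lost when 1 library was left out. A further 3 genes, Dnajc3, Herpud1 and Pdia3, were higher in double-null cells than in both single mutants but not than in WT, and the 13 together compare with 5.11% of all genes.

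Hspa5 and some of the other ER genes have a known DNA element in front of them. It is shown here because the genes that hold it include most of the abundant chaperones. The ER stress response element (ERSE) reads CCAAT, then 9 bases of any kind, then CCACG: NF-Y binds the CCAAT end and ATF6 or XBP1 the CCACG end. It was searched for on both strands in the 250 bases before the start site, in RefSeq promoter windows of build GRCm38.p6. In the sequences below, which run in the direction of the gene, capitals mark the element. The matches in Calr, Canx, Dnajc3 and Syvn1 are not printed. An ERSE on the other strand starts with CGTGG and ends with ATTGG. In Herpud1 the capitals mark ERSE-II, which reads ATTGG, 1 base of any kind, then CCACG. Positions are chr2:34772000-34772068 on the plus strand for Hspa5, chr10:86705508-86705681 on the minus strand for Hsp90b1, chr15:88819495-88819563 (plus) for Creld2, chr12:17266466-17266534 (plus) for Pdia6, chr10:75893217-75893285 (plus) for Derl3 and chr8:94386352-94386412 (plus) for Herpud1.
Hspa5: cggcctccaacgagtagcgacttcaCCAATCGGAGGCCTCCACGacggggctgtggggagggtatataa
Hsp90b1: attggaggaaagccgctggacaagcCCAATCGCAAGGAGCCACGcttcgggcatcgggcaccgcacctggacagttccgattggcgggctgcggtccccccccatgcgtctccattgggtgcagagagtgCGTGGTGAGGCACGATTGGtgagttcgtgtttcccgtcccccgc
Creld2: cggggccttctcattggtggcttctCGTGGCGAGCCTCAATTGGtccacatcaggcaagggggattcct
Pdia6: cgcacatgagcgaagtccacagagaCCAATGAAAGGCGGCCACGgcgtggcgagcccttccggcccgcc
Derl3: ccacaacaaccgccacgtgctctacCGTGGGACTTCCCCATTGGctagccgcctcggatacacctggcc
Herpud1: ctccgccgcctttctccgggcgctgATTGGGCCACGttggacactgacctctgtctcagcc

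An ERSE was present in 9 of the 35 listed genes with a promoter window, against 0.13% of the 27018 genes with one. The 9 were Hspa5, Hsp90b1, Calr, Canx, Creld2, Dnajc3, Pdia6, Syvn1 and Derl3, and the element was first defined on some of these same promoters, so the overlap is not independent of its definition. With the last 2 letters free it stood in 15 of the 35, against 1.12% of genes. Sdf2l1, Dnajb9 and Dnajb11, all called highest in double-null cells, held neither form. ERSE-II stood in 1 of the 35, Herpud1, against 0.037% of genes, and its match does not overlap an ERSE match. TGACGTGG, the unfolded protein response element, stood in 0 of the 35, against 0.603%, which says only that those letters are not in these windows. Of the 9 ERSE genes, 6 were higher in double-null cells than in T-bet-null cells, 7 were higher than in STAT6-null cells and 7 were higher than in WT cells, where 16.4%, 11.3% and 36.3% of all genes were. Among the 25 genes in the table whose window held no ERSE, 9, 7 and 11 were higher in those comparisons, in the same order. In double-null cells 2 of these genes were lower than in T-bet-null cells and 5 were lower than in WT cells. Outside the list, 26 genes held an ERSE and 7 of them were tested. None of the 7 was called between double-null and either single mutant by limma, and none had an unadjusted p under 0.05 there. Against WT, 1 of the 7 was higher and 5 were lower in each of the 3 mutants, the opposite lean to that of the 9 listed genes in double-null cells. Hyou1, Manf, Atf6, Derl1, Sec61a1, Ssr2 and Spcs3 had no window in the table used.

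Hspa5, the most abundant of the 41 and the general HSP70 chaperone of the ER, had 784 and 733 FPKM in double-null, 546 and 553 in T-bet-null, 632 and 647 in STAT6-null and 658 and 644 in WT libraries. The double-null libraries were the highest and the T-bet-null libraries the lowest, without overlap. Its log2 difference was 0.46 ± 0.06 (SE) over T-bet-null cells (adjusted p = 0.00065) and 0.25 ± 0.06 over STAT6-null cells (adjusted p = 0.0188), with n = 2 libraries each. Against WT it was 0.22 higher in double-null cells (adjusted p = 0.0073) and fell by 0.24 in T-bet-null cells (adjusted p = 0.0045). Hspa5 lost its call against STAT6-null cells without STAT6-null replicate 1 (adjusted p = 0.129), STAT6-null replicate 2 (0.0784) or double-null replicate 1 (0.0594), and its call for double-null against WT when only the groups compared were fitted (0.0507). Its fall in T-bet-null cells became a difference of -0.16 under quantile normalization and no longer called (0.0631). Hsp90b1, the ER member of the HSP90 family, had 194 and 208 FPKM in double-null, 142 and 146 in T-bet-null, 149 and 166 in STAT6-null and 147 and 144 in WT libraries. Here the T-bet-null and WT libraries overlapped, and both STAT6-null libraries lay above them. The double-null libraries stood clear above all the others. The log2 difference over WT was 0.46 ± 0.06 (adjusted p = 0.00018), and neither single mutant was called against WT. Its call against STAT6-null cells was lost without STAT6-null replicate 1 (adjusted p = 0.0628).

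Sdf2l1, a cofactor that keeps BiP clients soluble, showed the largest rise of any chaperone in double-null over WT cells, 0.92 ± 0.11 on the log2 scale (adjusted p = 5.4e-05). It had 20.1 and 24.0 FPKM in double-null, 11.2 and 11.4 in T-bet-null, 12.5 and 12.5 in STAT6-null and 12.5 and 9.93 in WT libraries. Manf, a small ER-resident stress protein that binds BiP and can be secreted, had 60.9 and 71.0 FPKM in double-null, 37.4 and 36.6 in T-bet-null, 45.1 and 44.8 in STAT6-null and 37.1 and 34.3 in WT libraries. Both genes kept all 3 double-null calls under every alternative tried. The step over STAT6-null cells was 0.76 ± 0.11 for Sdf2l1 and 0.54 ± 0.08 for Manf, with an adjusted p of 0.0019 each. Manf was also higher in STAT6-null than in WT cells, by 0.33 (adjusted p = 0.0037), whereas Sdf2l1 was not called in either single mutant against WT (log2 differences 0.02 and 0.15).

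Creld2, an ER protein with disulfide isomerase activity that stress induces, had 20.9 and 26.3 FPKM in double-null, 16.3 and 16.1 in T-bet-null, 16.2 and 18.3 in STAT6-null and 17.0 and 14.3 in WT libraries. Its double-null libraries differed more from each other than those of most ER genes. The call over WT held (0.56 ± 0.11, adjusted p = 0.0017), but that over STAT6-null cells (0.42, adjusted p = 0.0314) was lost without STAT6-null replicate 1 (0.184), STAT6-null replicate 2 (0.0614) or double-null replicate 2 (0.159), narrowly without either T-bet-null library (0.0504 and 0.0505), and with only the groups compared (0.0544). That over T-bet-null cells (0.51, adjusted p = 0.0102) was lost without T-bet-null replicate 2 (0.0558) or double-null replicate 2 (0.0576). Dnajb9, the J protein (ERdj4) that returns BiP to IRE1 and represses it, had 76.3 and 70.9 FPKM in double-null, 59.3 and 62.1 in T-bet-null, 57.8 and 57.0 in STAT6-null and 55.0 and 56.8 in WT libraries. Its call over STAT6-null cells (0.35 ± 0.06, adjusted p = 0.0034) held under every alternative, and its call over T-bet-null cells (0.27, adjusted p = 0.0069) was lost without T-bet-null replicate 1 (0.0621).

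Hyou1 and Dnajb11 formed a second pattern, in which the single mutants already stood above WT and the double-null cells stood above both. Hyou1, a large HSP70-like exchange factor for BiP, had 35.1 and 35.8 FPKM in double-null, 27.6 and 28.9 in T-bet-null, 28.4 and 28.0 in STAT6-null and 20.3 and 19.2 in WT libraries. The 2 single mutants overlapped. Dnajb11 (ERdj3), a J protein that hands clients to BiP, had 57.3 and 56.6 FPKM in double-null, 37.2 and 40.2 in T-bet-null, 47.3 and 47.1 in STAT6-null and 34.3 and 32.4 in WT libraries, so its genotypes formed 4 steps without overlap. Log2 differences of double-null over WT were 0.81 ± 0.05 for Hyou1 (adjusted p = 1.7e-06) and 0.75 ± 0.06 for Dnajb11 (adjusted p = 3.5e-06). The Dnajb11 step over STAT6-null cells (0.27, adjusted p = 0.0125) was lost without STAT6-null replicate 1 (0.0750) or STAT6-null replicate 2 (0.0677). Its rise in T-bet-null over WT cells (0.21, adjusted p = 0.0095) was lost without WT replicate 2 (0.0542) or T-bet-null replicate 2 (0.0968).

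The lectin chaperones split. Canx, membrane-bound calnexin, was higher in all 3 mutants than in WT cells, by 0.61, 0.47 and 0.42 in double-null, T-bet-null and STAT6-null cells (adjusted p at most 8.1e-05). Calr, soluble calreticulin, averaged 405 ± 38.6 FPKM in double-null, 290 ± 2.60 in T-bet-null, 352 ± 1.87 in STAT6-null libraries and 342 ± 3.17 in WT libraries (SD, n = 2). It was 0.24 higher in double-null cells than in WT cells (adjusted p = 0.00996) and fell by 0.24 in T-bet-null cells (adjusted p = 0.012), a fall that lost its call without T-bet-null replicate 2 (0.0663). Canx was also called higher in double-null than STAT6-null cells (0.19, adjusted p = 0.0322), a call lost without any 1 library other than a WT one (0.0633 to 0.196) and under median-of-ratios scaling, quantile normalization, no intensity trend or only the groups compared (0.0542 to 0.105). Dnajc3 (P58IPK), a J protein and inhibitor of the kinase PERK, fell in both single mutants, by 0.26 in T-bet-null and 0.28 in STAT6-null cells, and was not called in double-null cells against WT (-0.09). Its excess in double-null cells over T-bet-null (0.17, adjusted p = 0.0429) and over STAT6-null cells (0.19, adjusted p = 0.0422) was lost without any 1 library other than a WT one (0.0638 to 0.192), and both were lost under quantile normalization, the replicate block or only the groups compared (0.0546 to 0.0952). Dnajc10 (ERdj5), a reductase that serves degradation, fell by 0.32 in double-null, 0.22 in T-bet-null and 0.17 in STAT6-null cells. Its STAT6-null fall (adjusted p = 0.0316) lost its call without WT replicate 1 (0.117), WT replicate 2 (0.0522), either T-bet-null library (0.0508) or STAT6-null replicate 1 (0.170), and under median-of-ratios scaling (0.0844) or only the groups compared (0.0559), and its T-bet-null fall lost it without WT replicate 1 (0.0526) or T-bet-null replicate 1 (0.0757).

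**Figure D2:**
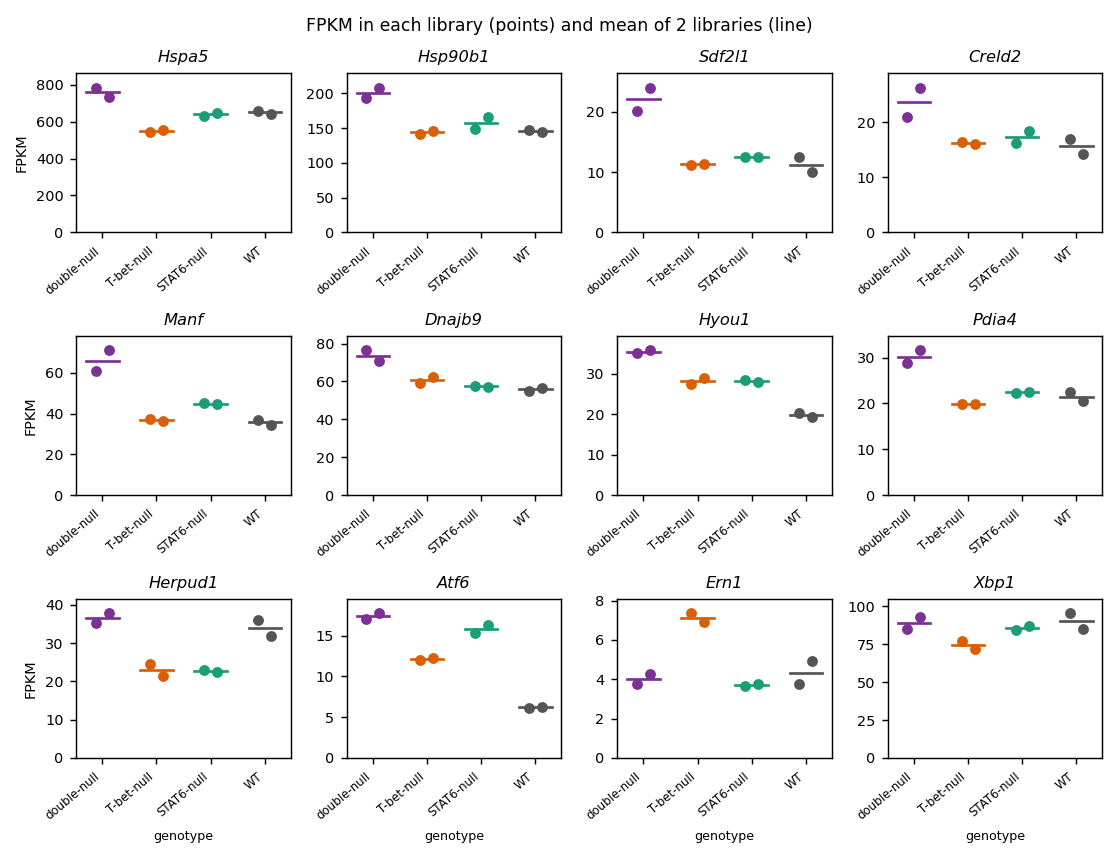
FPKM of 12 ER genes in each library on linear axes that start at 0, 1 panel per gene, with points for libraries and a line for the mean of each genotype (n = 2). Sdf2l1 and Manf are highest in double-null libraries, Atf6 is lowest in WT libraries, and Ern1 is highest in T-bet-null libraries.

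Among the sensors and their factors, Atf6 and Ern1 moved apart. Atf6 had 17.1 and 17.7 FPKM in double-null, 11.97 and 12.2 in T-bet-null, 15.3 and 16.3 in STAT6-null and 6.09 and 6.30 in WT libraries. All mutants were above WT without overlap, and the log2 difference of 1.35 ± 0.06 in double-null over WT cells (adjusted p = 2e-07) was the largest of the 41 genes in that comparison. Ern1, which encodes IRE1 alpha, had 3.74 and 4.27 FPKM in double-null, 7.35 and 6.90 in T-bet-null, 3.63 and 3.78 in STAT6-null and 3.74 and 4.91 in WT libraries. It rose only in T-bet-null cells among the calls against WT (0.62 ± 0.11, adjusted p = 0.00079), and it was lower in double-null cells than in T-bet-null cells (-0.70, adjusted p = 0.0018). The test of the difference between the effects of STAT6 loss with and without T-bet was called for both, at -0.73 ± 0.09 for Atf6 (adjusted p = 0.00016) and -0.53 ± 0.15 for Ern1 (adjusted p = 0.0154). The Ern1 interaction lost its call without T-bet-null replicate 1 (0.0507).

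Xbp1 mRNA did not follow the chaperones. It had 84.8 and 92.7 FPKM in double-null, 76.8 and 71.8 in T-bet-null, 84.4 and 87.0 in STAT6-null and 95.3 and 84.7 in WT libraries, and the double-null, STAT6-null and WT ranges overlapped. The double-null difference from WT was -0.02 ± 0.07 (adjusted p = 0.828) and that from STAT6-null cells was 0.05 (adjusted p = 0.686). Xbp1 fell by 0.27 in T-bet-null against WT cells (adjusted p = 0.0084), a call lost without WT replicate 1 (0.0610) or T-bet-null replicate 2 (0.0684). The difference of double-null over T-bet-null cells (0.25, adjusted p = 0.0280) was lost without T-bet-null replicate 1 (0.0606), T-bet-null replicate 2 (0.172) or double-null replicate 2 (0.144), and under quantile normalization (0.0741).

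Of the 5 disulfide enzymes, Pdia4 and Pdia6 were highest in double-null cells. Pdia4 (ERp72), a disulfide isomerase, averaged 30.2 ± 1.98 FPKM in double-null, 19.9 ± 0.0631 in T-bet-null, 22.4 ± 0.0730 in STAT6-null libraries and 21.4 ± 1.41 in WT libraries (SD, n = 2), and neither single mutant was called against WT. Pdia6 (P5), which also attenuates the sensors, had 98.7 and 109 FPKM in double-null, 72.4 and 70.8 in T-bet-null, 81.0 and 85.5 in STAT6-null and 57.1 and 52.1 in WT libraries, again 4 steps without overlap. Its difference was 0.91 ± 0.07 over WT (adjusted p = 3.1e-06) and 0.31 over STAT6-null cells (adjusted p = 0.0133), the second lost without STAT6-null replicate 1 (0.102) or double-null replicate 2 (0.0688). Ero1l, the oxidase that recharges the isomerases, was highest in the genotypes that lack T-bet. It had 28.6 and 27.2 FPKM in double-null, 30.1 and 31.7 in T-bet-null, 19.7 and 21.1 in STAT6-null and 15.5 and 14.8 in WT libraries. Both T-bet-deficient genotypes were above both T-bet-sufficient ones, with log2 differences from WT of 0.84 in double-null, 0.98 in T-bet-null and 0.40 in STAT6-null cells (adjusted p at most 0.0003).

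The other 2 disulfide enzymes did not rise over WT. Pdia3 (ERp57), the partner of calnexin and calreticulin, fell by 0.45 in T-bet-null and 0.28 in STAT6-null cells and was not called in double-null cells (-0.10, adjusted p = 0.101). It was higher in double-null cells than in T-bet-null ones by 0.35 (adjusted p = 0.0011) and than in STAT6-null ones by 0.19 (adjusted p = 0.0288), the second lost without either single-mutant genotype's libraries, 1 at a time, or double-null replicate 2 (0.0637 to 0.139), and without the intensity trend (0.0567) or with only the groups compared (0.0720). P4hb, the founding protein disulfide isomerase, fell by 0.16 in double-null (adjusted p = 0.0244) and 0.19 in STAT6-null cells (adjusted p = 0.0122). The double-null fall lost its call without WT replicate 1 (0.134) or double-null replicate 1 (0.0876) and with only the groups compared (0.0777), and the STAT6-null fall without WT replicate 1 (0.0723) or STAT6-null replicate 2 (0.0614).

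Of the 9 degradation genes in the table, Derl2, Sel1l and Syvn1 rose in double-null over WT cells, Edem1, Edem2 and Selk fell, and Derl1, Derl3 and Herpud1 were not called. In that comparison 36.3% of all genes tested rose and 36.7% fell, so this split is near the background. The summed level of the 9 genes was 259 ± 5.66 FPKM in double-null, 245 ± 5.22 in T-bet-null, 234 ± 3.19 in STAT6-null libraries and 317 ± 10.2 in WT libraries (SD, n = 2), so the WT sum was the highest. Selk, a selenoprotein bound to the p97 complex that extracts misfolded proteins, carried much of that sum, with 103 and 107 FPKM in double-null, 111 and 110 in T-bet-null, 98.1 and 102 in STAT6-null and 168 and 158 in WT libraries. It fell by 0.63, 0.56 and 0.70 in double-null, T-bet-null and STAT6-null cells (adjusted p at most 2.1e-05). Edem1 and Edem2, mannosidase-like proteins that mark glycoproteins for disposal, fell in all 3 mutants by 0.33 to 0.61. Edem1 was also lower in double-null cells than in T-bet-null cells (-0.16, adjusted p = 0.0376), but leaving out any library other than a WT one ended that call (adjusted p 0.0533 to 0.187), as did median-of-ratios scaling, no intensity trend, the replicate block and only the groups compared (0.0525 to 0.0666).

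Herpud1, a membrane protein of the degradation complex and a sensitive readout of ER stress, separated the single mutants from the rest. It had 35.2 and 37.8 FPKM in double-null, 24.4 and 21.5 in T-bet-null, 22.9 and 22.4 in STAT6-null and 36.1 and 31.9 in WT libraries. The single mutants overlapped each other below the overlapping double-null and WT ranges. Herpud1 fell by 0.55 ± 0.08 in T-bet-null (adjusted p = 0.00028) and by 0.57 ± 0.08 in STAT6-null cells (adjusted p = 0.00021), and was higher in double-null cells than in T-bet-null cells by 0.65 and than in STAT6-null cells by 0.67 (adjusted p 0.00063 and 0.00085). All 4 of those calls held under every alternative tried.

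Derl3, a derlin of the export channel known for its level in secretory cells, was the least abundant of the 41, with 3.01 and 3.64 FPKM in double-null, 3.21 and 1.99 in T-bet-null, 1.42 and 1.63 in STAT6-null and 4.13 and 4.23 in WT libraries. The T-bet-null libraries were far apart and spanned the lower double-null value. Derl3 fell by 1.04 ± 0.15 in STAT6-null cells against WT (adjusted p = 0.00022). Its fall of 0.54 in T-bet-null cells (adjusted p = 0.0093) lost its call without T-bet-null replicate 2 (0.0579), and its excess in double-null over STAT6-null cells (0.77, adjusted p = 0.0078) without STAT6-null replicate 1 (0.0628) or double-null replicate 2 (0.0506). Derl2, another derlin, had 8.56 and 8.66 FPKM in double-null, 7.15 and 7.77 in T-bet-null, 7.95 and 8.37 in STAT6-null and 4.93 and 4.95 in WT libraries. It rose by 0.69, 0.51 and 0.63 in double-null, T-bet-null and STAT6-null cells over WT.

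Sel1l and Syvn1 (HRD1), adaptor and ubiquitin ligase of the main degradation complex, were each 0.36 higher in double-null cells than in WT cells (adjusted p 0.00038 and 0.0014). Sel1l was also higher in STAT6-null than in WT cells (0.24, adjusted p = 0.0043) and in double-null cells than in T-bet-null cells (0.27, adjusted p = 0.0077), the second lost without T-bet-null replicate 1 (0.0622). Syvn1 was not called in either single mutant against WT (0.17 and 0.15). Derl1, another derlin, was called only in STAT6-null against WT cells (0.15, adjusted p = 0.0332). That call was lost without WT replicate 1 (0.0559), WT replicate 2 (0.116), either T-bet-null library (0.0564) or STAT6-null replicate 2 (0.188), and narrowly without the intensity trend (0.0530) or with only the groups compared (0.0514). Under quantile normalization the difference was 0.08 (adjusted p = 0.242).

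Of the 12 genes for entry into the ER, 6 (Sec61a1, Sec62, Ssr1, Ssr2, Ssr3 and Spcs3) were higher than WT in all 3 mutants, and 4 (Sec61b, Sec61g, Sec63 and Spcs1) were called against WT in none. Of all genes tested, 27% showed the first pattern and 13.2% the second. Sec61a1, the pore of the translocon, averaged 143 ± 6.29 FPKM in double-null, 118 ± 1.98 in T-bet-null, 131 ± 0.783 in STAT6-null libraries and 93.1 ± 0.762 in WT libraries (SD, n = 2). Its log2 differences from WT were 0.61, 0.34 and 0.49 in double-null, T-bet-null and STAT6-null cells (adjusted p at most 0.00035). It was also higher in double-null cells than in T-bet-null ones (0.28, adjusted p = 0.0046), and both of its double-null libraries lay above the other 6, as did those of Sec62, Ssr3 and Spcs3. The same separation was seen in 13.4% of all genes tested. Sec62, which assists post-translational entry, was 0.24 higher in double-null cells (adjusted p = 0.0022) and 0.15 higher in each single mutant, where the call was lost without any 1 of the WT libraries or that mutant's own libraries (adjusted p 0.0521 to 0.141), and in STAT6-null cells also without either T-bet-null library (0.0508 and 0.0509). Under quantile normalization the single-mutant differences of Sec62 were 0.10 in T-bet-null (adjusted p = 0.0938) and 0.08 in STAT6-null cells (adjusted p = 0.173). Sec61b, Sec61g and Sec63 were not called in any mutant against WT, with log2 differences of -0.24 to 0.20. Sec61g had the widest double-null replicates of the 41, at 54.9 and 74.2 FPKM. It was called in double-null over T-bet-null cells (0.38, adjusted p = 0.0426), and that call was lost without any 1 library other than a WT one or double-null replicate 1 (adjusted p 0.0644 to 0.204), and under quantile normalization, no intensity trend, the replicate block or only the groups compared (0.0562 to 0.0778).

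All 4 TRAP subunits, which help nascent chains through the channel, were higher in double-null cells than in WT cells, Ssr1 by 0.55, Ssr2 by 0.44, Ssr3 by 0.39 and Ssr4 by 0.27. In that comparison 36.3% of all genes tested were higher. Ssr1 was 0.50 higher in T-bet-null and 0.54 higher in STAT6-null cells. Ssr2 and Ssr3 were called higher in both single mutants too, at 0.25 and 0.20 in T-bet-null and 0.39 and 0.25 in STAT6-null cells. The T-bet-null call was lost for Ssr2 (adjusted p = 0.0497) without WT replicate 2 (0.284) or any 1 single-mutant library (0.0703 to 0.142), and with no filter (0.0534), no intensity trend (0.0654), the replicate block (0.0699) or a pseudocount of 0.1. For Ssr3 that call was lost without WT replicate 1 (0.0696) or either T-bet-null library (0.0554 and 0.0912). The STAT6-null call was lost for Ssr2 without WT replicate 2 (0.0547) and for Ssr3 without STAT6-null replicate 2 (0.0546). None of the 4 was called between double-null and either single mutant. The Ssr4 call (adjusted p = 0.0112) was lost without WT replicate 2 (0.0793) or double-null replicate 2 (0.0601). Of the signal peptidase subunits, Spcs3 rose by 0.41, 0.30 and 0.26 in double-null, T-bet-null and STAT6-null cells over WT. Spcs1 was not called in any comparison. Spcs2 fell by 0.21 in T-bet-null (adjusted p = 0.0245) and 0.20 in STAT6-null cells (adjusted p = 0.0314), the first lost without WT replicate 1 (0.154) or either T-bet-null library (0.0766 and 0.0977) and the second without WT replicate 1 (0.187) or STAT6-null replicate 1 (0.160).

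Across the roles, 13 of the 41 genes were higher than WT in each of the 3 mutants, a pattern of 27% of all genes tested, and 4 (Dnajc10, Edem1, Edem2 and Selk) were lower in each, a pattern of 27.2%. The 13 were Atf6, Canx, Derl2, Dnajb11, Ero1l, Hyou1, Pdia6, Sec61a1, Sec62, Spcs3, Ssr1, Ssr2 and Ssr3. The 7 genes Creld2, Dnajb9, Hsp90b1, Pdia4, Sdf2l1, Ssr4 and Syvn1 were higher than WT in double-null cells while neither single mutant was called, a pattern of 2.67% of all genes. Another 5, Derl3, Dnajc3, Herpud1, Pdia3 and Spcs2, were lower than WT in both single mutants and not called in double-null cells, a pattern of 2.61%. No gene of the 41 moved in opposite directions in the single mutants, where 1.58% of all genes did. Both double-null libraries were above all 6 others in 20 genes, as in 13.4% of all genes, while both WT libraries were below all others in 16 (33.2%) and above all others in 8 (33.7%).

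**Figure D3:**
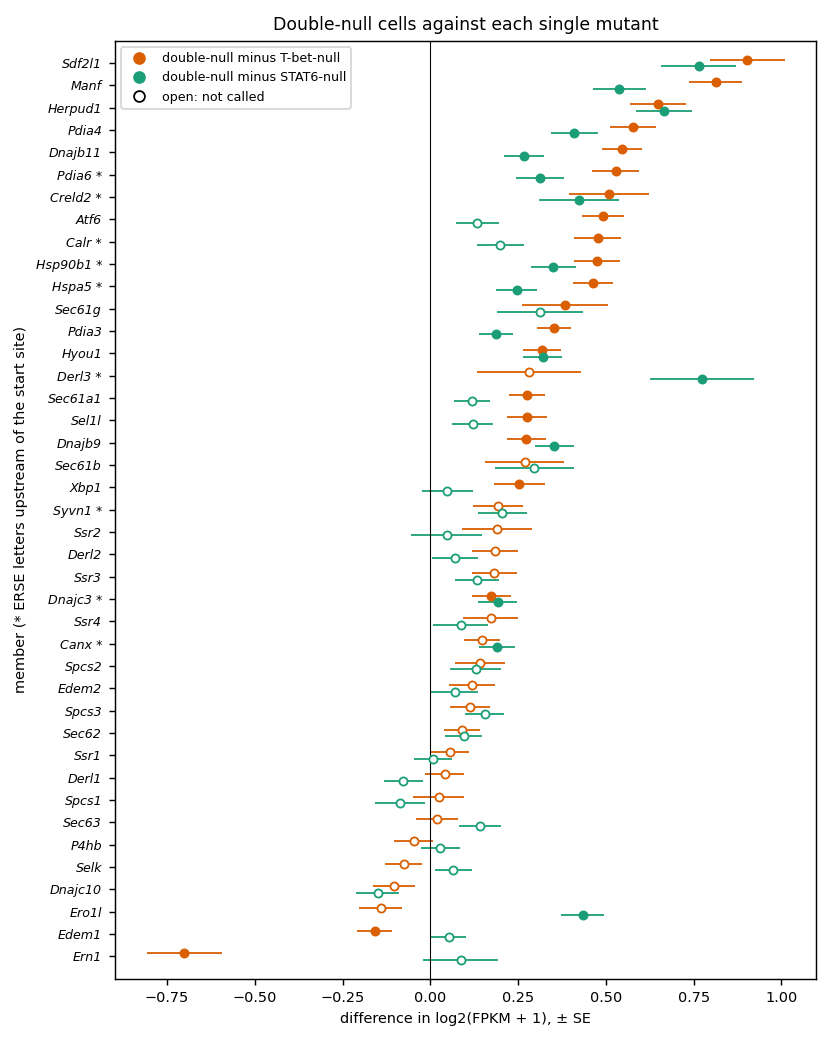
Log2 difference ± SE of double-null cells from T-bet-null (orange) and from STAT6-null cells (green) for each of the 41 ER genes, from the limma fit, with open circles for genes not called and an asterisk for genes with an ERSE. Both series share the double-null libraries, and Sdf2l1 lies farthest to the right, at 0.90 and 0.76.

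Members were set beside the summed transcript of cytokine genes, the secreted cargo of these cells. The 41 ER genes summed to 3034 and 3166 FPKM in double-null, 2452 and 2443 in T-bet-null, 2634 and 2695 in STAT6-null and 2672 and 2559 in WT libraries. As a share of all FPKM these were 0.663% in double-null, 0.567% in T-bet-null, 0.589% in STAT6-null libraries and 0.571% in WT libraries on average. Abundant genes weigh most in such a sum: Hspa5 made up 24% of it, and Hspa5, Calr and Hsp90b1 together 42.8%. The median log2(FPKM + 1) of the 41 was 5.18 and 5.28 in double-null and 5.14 and 5.17 in T-bet-null libraries. It was 5.14 and 5.16 in STAT6-null and 5.16 and 5.06 in WT libraries. The 19 cytokine genes found, of 20 listed, averaged 18010 ± 204 FPKM in double-null, 12150 ± 136 in T-bet-null, 17070 ± 378 in STAT6-null libraries and 7276 ± 248 in WT libraries (SD, n = 2). The cytokine sum was thus 2.48, 1.67 and 2.35 times the WT sum in double-null, T-bet-null and STAT6-null cells, and the ER sum 1.19, 0.936 and 1.02 times. Between double-null and STAT6-null cells the cytokine sums differed by a factor of 1.05 and the ER sums by 1.16. The sums were not tested: with 2 libraries a group the smallest exact two-sided permutation p is 0.333. No correlation is given because the libraries fall into clusters by genotype.

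**Figure D4:**
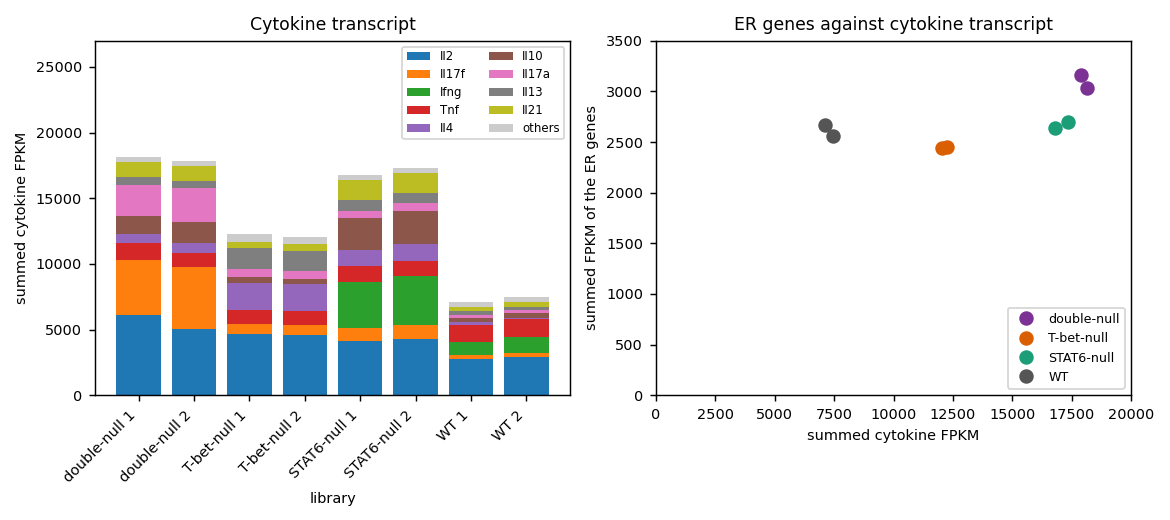
Left, stacked bars of cytokine FPKM in each library, with the cytokines over 5% of the sum in any library in colour and the others in grey. Right, summed FPKM of the 41 ER genes (vertical axis) against summed FPKM of 19 cytokine genes (horizontal axis), 1 point per library; the STAT6-null libraries lie near the double-null ones on the cytokine axis and near the WT ones on the ER axis.

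The makeup of the cytokine sum differed more than its size. Il17f, a cytokine that draws neutrophils, had 4163 and 4691 FPKM in double-null, 724 and 730 in T-bet-null, 968 and 1072 in STAT6-null and 309 and 268 in WT libraries. Il17a, its close relative, had 2374 and 2620 FPKM in double-null, 617 and 586 in T-bet-null, 500.1 and 581 in STAT6-null and 269.9 and 243 in WT libraries. Both stood clear above the other genotypes in double-null libraries, as 10 of the 12 chaperones and 13.4% of all genes tested did. A link between these cytokines and the chaperones was not tested. Il10, which restrains inflammation, was highest in STAT6-null libraries, with 1338 and 1631 FPKM in double-null, 430.0 and 429 in T-bet-null, 2462 and 2546 in STAT6-null and 304 and 325 in WT libraries. Ifng, the type 1 cytokine, had 16.0 and 17.8 FPKM in double-null and 32.4 and 33.9 in T-bet-null libraries, against 3516 and 3704 in STAT6-null and 1029 and 1250.4 in WT libraries. Il4, the type 2 cytokine that signals through STAT6, had 747 and 711 FPKM in double-null, 2079 and 2048 in T-bet-null, 1238 and 1275 in STAT6-null and 183 and 117 in WT libraries. Il2, the T cell growth factor and the largest single item over the 8 libraries, had 6133 and 5044 FPKM in double-null, 4682 and 4598 in T-bet-null, 4141 and 4306 in STAT6-null and 2741 and 2911 in WT libraries. Tnf differed least, at 1249 and 1099 FPKM in double-null, 1063 and 1027 in T-bet-null, 1203 and 1144 in STAT6-null and 1282 and 1359 in WT libraries. Il13, a type 2 cytokine, had 619 and 525 FPKM in double-null, 1556 and 1522 in T-bet-null, 865 and 775 in STAT6-null and 271 and 248 in WT libraries. Il21, which helps B cells, had 1130.2 and 1134 FPKM in double-null, 521 and 534 in T-bet-null, 1467 and 1516 in STAT6-null and 335 and 387 in WT libraries.

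Markers of other cells moved with some of these genes. The 8 B and plasma cell markers found, of 13 listed, summed to 98.9 to 105 FPKM in double-null, 64.1 to 64.8 in T-bet-null, 76.0 to 83.2 in STAT6-null and 33.5 to 34.8 in WT libraries, an order that runs with that of several chaperones. The largest item of each sum was Pou2af1, a coactivator that T cells also express, at 91.2 and 100.1 FPKM in double-null, 62.2 and 61.7 in T-bet-null, 69.3 and 70.2 in STAT6-null and 28.5 and 29.1 in WT libraries. Sdc1, the plasma cell syndecan, was at 0.549 and 0.395 FPKM in double-null, 0.337 and 0.3003 in T-bet-null, 0.517 and 0.526 in STAT6-null and 0.319 and 0.438 in WT libraries. Among the B cell receptor genes, Cd79a had 1.02 and 0.445 FPKM in double-null, 0.765 and 0.721 in T-bet-null, 2.98 and 0.916 in STAT6-null and 2.08 and 1.41 in WT libraries, so it did not follow Pou2af1. Cd79b and Cd22 were likewise lowest in double-null libraries, at 0.167 to 0.439 FPKM, and reached 1.17 and 1.38 in WT libraries. Igj, the antibody joining chain, had 4.83 and 2.83 FPKM in double-null, 0.160 and 0.142 in T-bet-null, 6.91 and 2.64 in STAT6-null and 0.245 and 0.285 in WT libraries. Kit, the 1 marker found of 5 for mast cells and basophils, had 56.7 and 62.9 FPKM in double-null, 8.67 and 8.11 in T-bet-null, 32.5 and 34.0 in STAT6-null and 18.1 and 18.6 in WT libraries, with double-null highest and T-bet-null lowest as for Hspa5 and Calr. The part of such cells in the ER results was not tested. The part of the haemoglobin RNA of the WT libraries in the comparisons with WT was not tested either.

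Neighbouring pathways, from lists of genes that are not among the 41, varied in how far they moved, and their counts are read against the shares of all genes, which over WT were 36.3% higher and 36.7% lower in double-null cells. In ER-to-Golgi transport, 19 of 28 genes rose and 3 fell in double-null over WT cells, 17 rose and 4 fell in T-bet-null and 19 rose and 4 fell in STAT6-null cells. Only 1 of the 28 was higher in double-null cells than in STAT6-null cells and 8 were higher than in T-bet-null cells, where 11.3% and 16.4% of all genes were. Sar1b, a GTPase that starts transport vesicles, had 32.8 and 31.9 FPKM in double-null, 21.5 and 22.7 in T-bet-null, 31.5 and 34.4 in STAT6-null and 14.5 and 14.9 in WT libraries, which put double-null and STAT6-null cells together. Sec24b, a cargo-binding coat protein, rose by 0.92, 1.04 and 0.77 in double-null, T-bet-null and STAT6-null cells, and Tmed9, a cargo receptor, by 0.75, 0.46 and 0.62. In the signal recognition and translocation list, 9 of 13 rose and 2 fell in double-null cells, among them Srp68, a protein of the signal recognition particle, at 39.3 and 41.3 FPKM in double-null, 36.1 and 33.0 in T-bet-null, 35.8 and 35.0 in STAT6-null and 18.8 and 19.2 in WT libraries. Hspa13, an HSP70-like microsomal ATPase, rose by 0.42 in double-null and T-bet-null cells and by 0.63 in STAT6-null cells, while Sec11c, a catalytic subunit of signal peptidase, fell by 0.24, 0.36 and 0.69 in double-null, T-bet-null and STAT6-null cells.

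N-glycosylation had 9 of 20 genes higher and 3 lower in double-null cells than in WT cells, the higher share being near that of all genes. Stt3a, the catalytic subunit of the oligosaccharyltransferase at the translocon, had 86.0 and 84.0 FPKM in double-null, 71.5 and 74.9 in T-bet-null, 75.2 and 74.9 in STAT6-null and 43.9 and 47.5 in WT libraries. Mogs, the glucosidase that trims the first sugar, rose by 0.55, 0.76 and 0.53 in double-null, T-bet-null and STAT6-null cells, and Tusc3, an oxidoreductase subunit of the transferase, fell by 0.75, 0.79 and 0.66. The other ER folding enzymes had 4 of 15 higher and 7 lower in double-null cells, near the shares of all genes, 3 higher and 8 lower in T-bet-null cells and 4 higher and 8 lower in STAT6-null cells. Sil1, an exchange factor for BiP, had 2.86 and 2.51 FPKM in double-null, 2.94 and 3.04 in T-bet-null, 2.60 and 2.21 in STAT6-null and 6.74 and 6.07 in WT libraries, while Hyou1, with the same activity, moved the opposite way. P4ha1, a prolyl hydroxylase of collagen, fell by 1.09 in double-null cells and Txndc5, a disulfide isomerase, rose by 0.82.

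Other degradation genes were split, with 5 of 18 higher and 7 lower in double-null cells than in WT cells, again near the shares of all genes. Os9, a lectin of the degradation complex, fell by 0.82 to 0.84 in the 3 mutants, Ube2g2, a ubiquitin-conjugating enzyme, rose by 0.60 to 0.82, and Ngly1, which strips sugars from exported proteins, rose by 1.23 in STAT6-null cells and 0.67 in double-null cells and was not called in T-bet-null cells (0.13). In the PERK arm and other sensors, 8 of 13 genes were higher and 4 lower in double-null cells than in WT cells. Creb3l2, a membrane-bound factor related to ATF6, had 18.4 and 20.6 FPKM in double-null, 39.5 and 37.1 in T-bet-null, 22.5 and 24.4 in STAT6-null and 8.98 and 12.3 in WT libraries, with T-bet-null cells highest as for Ern1. Asns, an asparagine synthetase and target of ATF4, had 11.5 and 13.9 FPKM in double-null, 9.80 and 9.33 in T-bet-null, 7.69 and 7.47 in STAT6-null and 4.87 and 3.94 in WT libraries. Chac1, another ATF4 target, had 1.85 and 2.04 FPKM in double-null, 0.925 and 0.560 in T-bet-null, 0.816 and 1.03 in STAT6-null and 0.317 and 0.244 in WT libraries. Both were called higher in double-null cells than in each of the other 3 genotypes.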

How the data were processed

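The authors deposited 1 table of FPKM values per gene and library, made with Cufflinks on the mouse build mm10, per the submitters' processing notes. Not given in the sources used here: aligner, versions, strandedness. All 11906 lines exceeded 0.1 FPKM in all 8 libraries, so genes silent in a library are not in it. For 43 symbols on several lines the highest line was kept and 65 lines were set aside. Depth is not stated; over 503 low genes, the steps of values put the deepest library at 1.215 times the shallowest.

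Values were tested as log2(FPKM + 1) with limma 3.58.1 in R 4.3.3, with one mean per genotype over all 8 libraries, an intensity trend, and genes of at least 1 FPKM in at least 2 libraries. Adjustment was Benjamini-Hochberg within each of 6 comparisons, two-sided. The interaction is double-null minus T-bet-null, less STAT6-null minus WT. The spread has 4 residual degrees of freedom. FPKM are relative to a library's own total, and log2(FPKM + 1) understates changes of low genes. The fit was also run on simulated data in which a small set of genes changed in T-bet-null libraries only. Far more genes were called in the real data, so that run cannot show how well the calls here hold.

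Members and lists were chosen with earlier results of these data known. Per-library values are given for sensors and their readouts, for the 10 members of largest log2 change called against WT, for up to 3 genes of each related list by the same rule, and for cytokines over 5% of the cytokine sum; the single marker genes were picked from the marker lists after their values were seen. Promoters came from RefSeq windows of GRCm38.p6, 3 members being matched by an older or newer symbol. Alternatives were other scalings, pseudocount 0.1, filters, no trend, a replicate block, fits of only the groups compared, summed lines and leaving out each library. Same-numbered libraries deviated together with r from -0.0899 to 0.0907, which shows no strong shared deviation. Whether the numbers pair samples is not stated, and these values cannot settle it.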

Additional observations from a re-analysis of the deposited data

Results flagged for a closer look

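For 25 of the 41 ER genes the effect of STAT6 loss differed by whether T-bet was present, as a called interaction in the limma fit (adjusted p under 0.05). This share is near that of all genes tested, of which 57.3% had a called interaction, 29.6% positive and 27.7% negative, while 18 of the 41 were positive and 7 negative. A positive value means that STAT6 loss moved the gene up more, or down less, in T-bet-null cells than in T-bet-sufficient cells. The largest were Derl3 at 1.32 and Herpud1 at 1.21 on the log2 scale, both lower in the single mutants than in double-null and WT cells by their means. Among chaperones and disulfide enzymes the value was 0.75 for Sdf2l1, 0.63 for Pdia3, 0.51 for Pdia4, 0.49 for Hspa5, 0.48 for Manf, 0.45 for Dnajc3, 0.43 for Calr, 0.37 for Hsp90b1, 0.24 for Dnajb9, -0.28 for Canx and -0.54 for Ero1l. Among sensors it was 0.32 for Xbp1, -0.53 for Ern1 and -0.73 for Atf6. Among the other degradation genes it was 0.68 for Edem2, 0.62 for Selk, 0.38 for Edem1 and -0.44 for Derl2. For entry into the ER it was 0.51 for Sec61b, 0.49 for Sec61g, 0.34 for Spcs2, -0.22 for Sec61a1 and -0.49 for Ssr1. Of the 18 positive calls 13 held under every alternative, and of the 7 negative calls 4 did. Dnajb9, Xbp1, Sec61b, Sec61g and Spcs2 lost a positive call, and Canx, Ern1 and Sec61a1 a negative one, when at least 1 library was left out.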

How the results depend on the processing

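No call of a member reversed under any alternative tried. Of the single-member values under alternatives, 3909 kept their side of the threshold, 181 lost a call and 45 gained one. The 2 members lower in double-null cells than in T-bet-null ones became 1 under median-of-ratios scaling, without the intensity trend, with the replicate block and with only the groups compared. With the replicate block, members higher numbered 13, 16 and 24 in T-bet-null cells, STAT6-null cells and double-null cells against WT, 18 and 15 in double-null against T-bet-null and STAT6-null cells, and 17 for the interaction. Whether the replicate numbers pair samples is not stated. Leaving out each library gave 10 to 15 higher and 8 to 14 lower in T-bet-null cells, 13 to 16 and 8 to 10 in STAT6-null cells, 23 to 25 and 4 to 6 in double-null cells, 15 to 21 and 1 to 2 in double-null against T-bet-null cells, 7 to 17 and 0 in double-null against STAT6-null cells, and 13 to 18 and 5 to 8 for the interaction. The cytokine sum over WT was 2.53 (double-null), 1.70 (T-bet-null) and 2.42 (STAT6-null) under median-of-ratios scaling, 2.79 (double-null) and 2.89 (STAT6-null) without its highest gene, and 1.59 (T-bet-null) with chemokines added. The ER sum was 0.954 (T-bet-null) and 1.05 (STAT6-null) under median-of-ratios scaling. The causes were not tested. Counts of related lists moved by over 1.5 times in 119 cases and stayed in 1093. Depth is known only as a ratio, so no counting interval is given.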
